A study of Mus musculus with 12 samples.

Results

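The phagocyte NADPH oxidase is the enzyme complex with which neutrophils and monocytes turn oxygen into superoxide. Its catalytic core, cytochrome b558, sits in the membrane and consists of gp91phox (Cybb, also called Nox2) and p22phox (Cyba). In resting cells the organizer p47phox (Ncf1) and p40phox (Ncf4) wait in the cytosol, and on stimulation they move to the membrane together with a Rac GTPase, Rac2 in blood cells. Loss of Cybb, Cyba, Ncf1 or Ncf4 in humans causes chronic granulomatous disease, in which phagocytes fail to kill ingested microbes, and the genes are switched on as myeloid precursors mature. The 5 genes described here, Cybb, Cyba, Ncf1, Ncf4 and Rac2, were taken as a named list. No rule on their values was used, but earlier results of these data were known. All 5 are in the table of 15651 genes, and all 5 passed the filter on low values, which asked for a mean of at least 1 TPM (transcripts scaled to a fixed library total) in a compared group.

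RNA was sequenced from leukemic splenocytes of moribund mice with acute myeloid leukemia (AML), enriched for c-Kit, a receptor of immature blood cells, on CD117 beads. D/F mice carried Dnmt3a fl/fl, Flt3 ITD/ITD and Mx1Cre, and T/F mice carried Tet2 fl/fl with the same Flt3 ITD/ITD and Mx1Cre. Cells of each of 6 mice, 3 per genotype, were divided between vehicle (DMSO) and CCS1477, an inhibitor of the bromodomains of the coactivators p300 and CBP, for 6 hours in medium with SCF, IL6 and IL3. D/F cells received 4 μM and T/F cells 2 μM, so the genotype and the dose cannot be told apart in any difference between their responses. Every group thus shared the Flt3 ITD alleles, the Cre and the cytokines. Floxed alleles were lost through leaky Mx1Cre without induction, no wild-type cells were among the libraries, and the ages of the mice were not given in the sources used here.

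The 12 libraries summed to between 914204 and 931697 TPM, and read numbers per library could not be recovered from TPM. Libraries of a group correlated at 0.947 to 0.991 on the log2 scale. The lowest values belonged to both libraries of D/F mouse 2, which stood apart, and the values that moved by over 1.5 times without this mouse, or changed their call, are given beside the results. Kit was present in all libraries, at 22.8 to 149 TPM, and of genes that mark T and B cells, Cd3e, Cd3g and Cd79a were not in the table while Cd3d lay at 7.24 to 14.9 TPM and Cd79b at 3.64 to 22.8 TPM. Under DMSO, Dnmt3a lay at 29.3 to 55.7 TPM in D/F and 39.9 to 53.9 TPM in T/F, and Tet2 at 38.3 to 43.4 and 30.0 to 35.8 TPM. A total over all exons does not check a deletion of some exons.

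Upstream sequence was at hand for Cybb, Cyba and Ncf1 and is shown because the known regulators of this promoter class, PU.1, interferon regulatory factors (IRF) and C/EBP proteins, were measured in the same libraries. Each run is the 250 bases before the RefSeq transcription start, in GRCm38.p6, 5′ to 3′ on the gene's own minus strand, with matches to the IRF repeat in capitals, which is GAAA, any 2 bases and GAAA again. They lie at chrX:9469325-9469574 for Cybb, chr8:122432941-122433190 for Cyba and chr5:134229626-134229875 for Ncf1. The run of Cybb lies within the GENCODE span of the gene (9435252 to 9487771), whose start is thus upstream of this RefSeq start.
Cybb: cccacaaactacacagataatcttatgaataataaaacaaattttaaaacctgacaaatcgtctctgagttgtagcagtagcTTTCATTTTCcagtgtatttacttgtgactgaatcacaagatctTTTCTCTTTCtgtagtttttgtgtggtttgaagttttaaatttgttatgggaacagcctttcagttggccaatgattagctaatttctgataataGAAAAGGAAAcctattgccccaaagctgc
Cyba: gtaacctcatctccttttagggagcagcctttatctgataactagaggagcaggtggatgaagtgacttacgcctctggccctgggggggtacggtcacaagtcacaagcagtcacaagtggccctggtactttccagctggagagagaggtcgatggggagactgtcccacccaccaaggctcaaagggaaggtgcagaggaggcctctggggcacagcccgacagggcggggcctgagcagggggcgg
Ncf1: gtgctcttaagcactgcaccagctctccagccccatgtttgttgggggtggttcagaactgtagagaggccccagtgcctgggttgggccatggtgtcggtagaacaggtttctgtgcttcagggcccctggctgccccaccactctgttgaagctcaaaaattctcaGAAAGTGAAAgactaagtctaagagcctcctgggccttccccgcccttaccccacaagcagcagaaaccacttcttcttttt
Within the whole window of 300 bases, read on both strands and including the bases after the start, Cybb held 3 IRF repeats, of which the nearest began 29 bases before the start, and Ncf1 held 1, which began 82 bases before it. Cyba held none. Of 32851 promoters of this length, 3.44% held at least 1 such repeat. The PU.1 core GAGGAA occurred once, in Cybb, 10 bases after the start on the opposite strand, in the stretch chrX:9469298-9469327, where its reverse complement is in capitals and the first 3 bases repeat the end of the run above.
Cybb around the start: tgctgttttcatTTCCTCatcagaagaaga
This core is common, in 28.3% of the promoters. The C/EBP letters TTGCNNAA, found in 10.8% of promoters, were in none of the 3 windows. Ncf4 and Rac2 were not among the promoters searched.

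Each of the 5 genes had a lower TPM under CCS1477 than under DMSO in every D/F mouse, and 4 of them did in every T/F mouse. Ncf1 and Ncf4 fell in both genotypes by limma on log2(TPM + 1), with Benjamini-Hochberg adjustment over all genes and a call at an adjusted p under 0.05. In D/F these were 2 of the 5 genes, where 6.51% of 15501 genes were called lower and 5.14% higher. In T/F they were again 2 of the 5, where 17.6% of 15256 genes were called lower and 25.8% higher. The calls in D/F split into 55.9% lower and the rest higher, and after quantile normalization into 45.5% lower. The 5 genes had a median log2 fold change of -1.20 (D/F) and -0.63 (T/F), beside 0.06 and 0.07 over all genes tested. The main test treated libraries as unpaired. Because both libraries of a replicate number came from the same mouse, a second fit with the mouse as a block was run, and it called all 5 genes lower in D/F (18% of all genes) and 3 of 5 in T/F (22.9% of all genes). In these bulk libraries fewer cells of a type and less RNA per cell cannot be told apart.

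**Figure D1:**
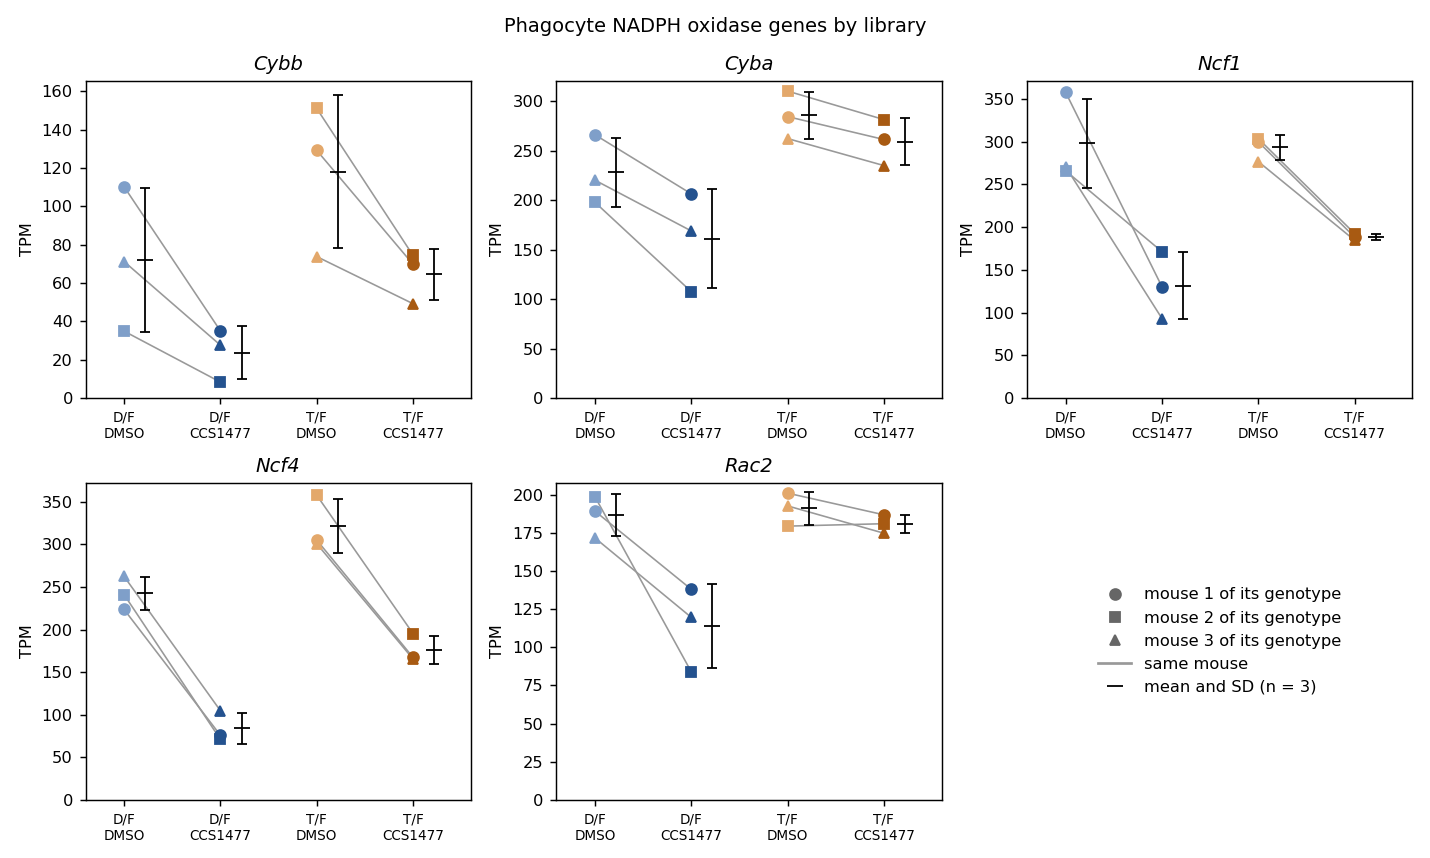
TPM of the 5 oxidase genes (vertical axis, linear, from 0) in the 4 groups, one symbol per mouse, with lines joining the DMSO and CCS1477 libraries of a mouse and bars for the mean and SD of 3 mice. Ncf1 and Ncf4 separate the treatments in both genotypes, Cybb spreads widely between mice but declines along every line, and Rac2 separates the treatments in D/F but lies flat in T/F.

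Cybb, the catalytic subunit (ENSMUSG00000015340; GRCm38 chromosome X, 9435252 to 9487771, minus strand), varied most between mice. In D/F it stood at 110.2, 34.9 and 71.2 TPM under DMSO and at 35.1, 8.32 and 27.6 TPM under CCS1477, in mice 1, 2 and 3. Mouse 2 was lowest under both treatments, and its DMSO value fell just below the CCS1477 value of mouse 1, so the groups overlapped. The log2 fold change was -1.64 ± 0.62 (SE, n = 3 mice per treatment) with an adjusted p of 0.135 by limma. Blocking by mouse gave an SE of 0.15 and an adjusted p of 0.00587. Without mouse 2 the log2 fold change was -1.48, with an adjusted p of 0.0301.

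In T/F, Cybb stood at 129, 151 and 73.8 TPM under DMSO and at 69.8, 74.4 and 49.2 TPM under CCS1477. Mouse 3 was lowest under both treatments, and again the groups overlapped by a single pair, mouse 3 under DMSO and mouse 2 under CCS1477. This gave a log2 fold change of -0.82 ± 0.30 (SE), with an adjusted p of 0.0732 by limma and of 0.00669 with the mouse as a block. Leaving out mouse 3 gave -0.95 and an adjusted p of 0.0135. D/F mice kept 31.8%, 23.9% and 38.7% of their DMSO level of Cybb. T/F mice kept 54.0%, 49.2% and 66.7%.

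Cyba encodes p22phox, the partner that stabilizes gp91phox and docks p47phox (ENSMUSG00000006519; chromosome 8, 122424776 to 122432930, minus strand). In D/F it stood at 266, 198 and 220.1 TPM under DMSO and 206, 108 and 169 TPM under CCS1477. Mouse 2 was again the lowest of its group, and the groups overlapped. The log2 fold change was -0.54 ± 0.27 (SE), with an adjusted p of 0.236 by limma and of 0.0452 with the mouse as a block. Its values in T/F were 284, 310.1 and 262 TPM under DMSO and 261, 281 and 235 TPM under CCS1477. The T/F difference was -0.14 ± 0.10 (SE), with a 95% interval of -0.39 to 0.11 and an adjusted p of 0.303, and the test passed neither without nor with the block, whose adjusted p was 0.071. Each T/F mouse nonetheless kept a similar share of its DMSO level, 91.9%, 90.7% and 89.6%.

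Ncf1 encodes p47phox, which is phosphorylated on activation and carries the cytosolic subunits to cytochrome b558 (ENSMUSG00000015950; chromosome 5, 134220053 to 134229625, minus strand). It fell in D/F from 358, 266 and 270.5 TPM to 130.1, 171 and 93.0 TPM. The groups did not overlap, as for 16.7% of genes in this direction, and mouse 2 kept 64.4% of its DMSO level while mice 1 and 3 kept 36.4% and 34.4%. Its log2 fold change was -1.20 ± 0.26 (SE), with an adjusted p of 0.0357 by limma. In T/F it fell from 299.6, 303 and 277 TPM to 188, 192 and 185 TPM, a spread of a few TPM between mice. The T/F log2 fold change was -0.63 ± 0.06 (SE), with an adjusted p of 0.00119. Of the exon bases of Ncf1, 408 of 3663 are shared with the opposite-strand gene Gtf2ird2, listed at 10.3 to 28.4 TPM. The strand setting of the quantification was not given in the sources used here, and without strand the reads of these bases cannot be told apart.

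Ncf4 encodes p40phox, which binds a phagosomal lipid and sustains the oxidase at the phagosome (ENSMUSG00000071715; chromosome 15, 78244801 to 78262580, plus strand). It fell in D/F from 224, 241 and 262 TPM to 75.8, 70.9 and 105 TPM. The groups lay far apart, and the mice kept 33.9%, 29.4% and 39.9% of their DMSO level. The log2 fold change was -1.54 ± 0.19 (SE), with an adjusted p of 0.00937 by limma. It fell in T/F from 305, 358 and 301 TPM to 167, 195 and 165 TPM. The T/F mice kept 54.8%, 54.6% and 55.0%, a mean of 54.8% ± 0.21 (SD, n = 3). The T/F log2 fold change was -0.86 ± 0.11 (SE), with an adjusted p of 0.002. In T/F the groups of Ncf1 and of Ncf4 did not overlap, as for 22.6% of genes in this direction.

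In D/F the calls of Ncf1 and Ncf4, like those of all genes, needed both mouse 1 and mouse 3. Without mouse 2 both genes remained called (adjusted p = 0.0256 and 0.0218 by limma). Without mouse 1 or without mouse 3 limma called none of the genes in the table. An unadjusted limma p under 0.05 was then reached by 2494 (16% of 15539) and 2330 genes (15% of 15545). Among them were 3 and 2 of the 5 oxidase genes. Ncf4 then had a log2 fold change of -1.54 and -1.65. Ncf1 had one of -1.08 and -1.04.

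Rac2 is the GTPase that turns on the assembled oxidase in blood cells and also steers actin during migration (ENSMUSG00000033220; chromosome 15, 78559167 to 78572783, minus strand). In D/F its values were 189, 199 and 172 TPM under DMSO and 138, 84.0 and 119.7 TPM under CCS1477. The groups did not overlap, as for 16.7% of genes in this direction, and the exact permutation test gave p = 0.1. This is the smallest p that 3 libraries against 3 allow, and the test did not use the pairing by mouse. Rac2 thus had a log2 fold change of -0.73 ± 0.22 (SE), with an adjusted p of 0.0752 by limma and of 0.0444 with the mouse as a block. Without mouse 2, whose Rac2 was lowest under CCS1477, it was -0.49, with an adjusted p of 0.0666. In T/F the values were 201, 179 and 193 TPM under DMSO and 187, 181 and 175 TPM under CCS1477. These groups overlapped, and mouse 2 was marginally higher under CCS1477. The T/F difference was -0.08 ± 0.07 (SE), with a 95% interval of -0.25 to 0.09 and an adjusted p of 0.41, and it turned to 0.049 after quantile normalization.

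**Figure D2:**
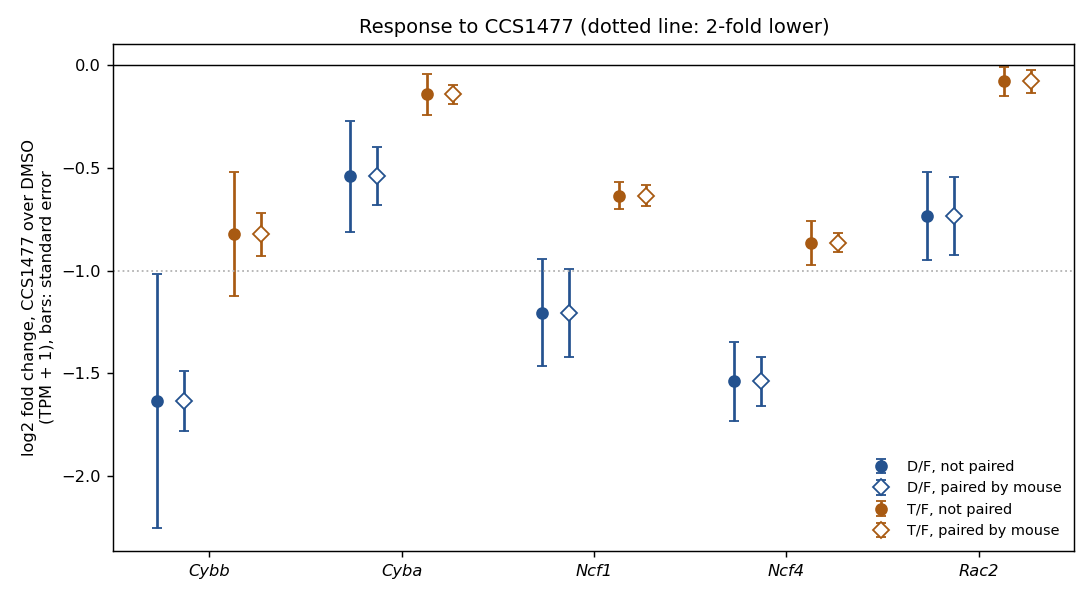
Log2 fold change of TPM + 1 under CCS1477 relative to DMSO (vertical axis) for each gene, with standard errors, in D/F (blue) and T/F (orange), from the unpaired fit (filled circles) and with the mouse as a block (open diamonds). Pairing leaves the estimates in place and narrows the error of Cybb from 0.62 to 0.15 in D/F and from 0.30 to 0.10 in T/F.

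With both genotypes in a single fit, which compares the treatments across 6 mice, 4 of the 5 genes fell, where 19.6% of 15583 genes were called lower. The log2 fold changes were -1.20 for Ncf4 (adjusted p = 6.42e-05), -0.92 for Ncf1 (adjusted p = 0.00068), -1.23 for Cybb (adjusted p = 0.0209) and -0.41 for Rac2 (adjusted p = 0.0402). Cyba, at -0.34, had an adjusted p of 0.0973. With the block 4 of the 5 genes were again called, where 25.9% of all genes were called lower. It moved Cyba and Rac2 across the threshold in opposite directions, with an adjusted p of 0.0259 for Cyba and of 0.0617 for Rac2. Without D/F mouse 3 the calls of Cybb and Rac2 were lost (adjusted p = 0.0605 and 0.113), and that of Rac2 was also lost without D/F mouse 1, T/F mouse 1 or T/F mouse 3. Without D/F mouse 2 Rac2 stood at -0.24, with an adjusted p of 0.0467. After quantile normalization it stood at -0.30, with an adjusted p of 0.131.

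Whether the genotypes responded differently was asked with an interaction term. The T/F response minus the D/F response was above 0 for all 5 genes, at 0.81 for Cybb, 0.40 for Cyba, 0.57 for Ncf1, 0.67 for Ncf4 and 0.66 for Rac2 on the log2 scale. None was called, as for 0% of genes by limma, where 659 genes, 4.23%, had an unadjusted p under 0.05. Ncf4 and Rac2 were among those 659, and the adjusted p was 1 for every gene of the 5. Without D/F mouse 2 the differences were 0.23 for Cyba, 0.86 for Ncf1 and 0.41 for Rac2, and none was called. In the fit blocked by mouse, adjusted p ranged from 0.172 for Ncf4 to 0.36 for Ncf1. The share of its DMSO level that a mouse kept was higher in every T/F mouse than in every D/F mouse for Cybb, Cyba, Ncf4 and Rac2, with an exact permutation p of 0.1 for each. The same held for 13.6% of 15220 genes. For Ncf1 the shares of the genotypes overlapped, because D/F mouse 2 lay within the T/F range, and the exact permutation p was 0.3. The dose was 2-fold apart between the genotypes in each of these values.

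Between genotypes under DMSO, none of the 5 genes was called by limma, where 0.0328% of 15265 genes were called in either direction and 939, or 6.15%, had an unadjusted p under 0.05. Ncf4 was higher in each T/F mouse than in each D/F mouse, as for 5.17% of genes in this direction, with a log2 difference of 0.40 ± 0.13 (SE) and an adjusted p of 0.682. Ncf1 and Rac2 lay close together, with differences of -0.01 (95% interval -0.38 to 0.36) and 0.03 (-0.25 to 0.32). Cybb and Cyba overlapped between genotypes and differed by 0.79 ± 0.47 and 0.33 ± 0.15 (SE). The difference of Cybb was 0.35 without D/F mouse 2. Under CCS1477 all 5 genes stood higher in every T/F library than in every D/F library, as for 9.59% of genes in this direction. The log2 differences were 1.60 for Cybb, 0.73 for Cyba, 0.56 for Ncf1, 1.08 for Ncf4 and 0.69 for Rac2. Without D/F mouse 2 those of Cybb and Cyba were 1.00 and 0.47, and without D/F mouse 3 that of Ncf1 was 0.33. None passed by limma, with adjusted p from 0.135 for Ncf4 to 0.445 for Ncf1, where 0.0329% of genes were called and 1643, or 10.8%, had an unadjusted p under 0.05. The smallest exact permutation p that 3 against 3 allow, 0.1, was reached by all 5. These values share their libraries with the comparisons of treatment.

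TPM is scaled by transcript length, so levels of different genes can be ordered within a library. Under DMSO the order by mean in D/F was Ncf1 (298 TPM), Ncf4 (242), Cyba (228), Rac2 (187) and Cybb (72.1). In T/F it was Ncf4 (321 TPM), Ncf1 (293), Cyba (285), Rac2 (191) and Cybb (118). Cybb was lowest in every group and did not overlap its neighbour in any of them. Under CCS1477 the order was the same in both genotypes: Cyba, Ncf1, Rac2, Ncf4, Cybb. In D/F under DMSO, Ncf4 overlapped Cyba and Cyba overlapped Rac2, and under CCS1477 each of the first 4 overlapped its neighbour among them. In T/F under DMSO, Ncf4, Ncf1 and Cyba overlapped in that order. Under CCS1477, Cyba lay above Ncf1 in T/F without overlap, and Ncf1, Rac2 and Ncf4 overlapped. Against all genes of a library, the other four lay between the percentiles 83.9 and 97.8, and Cybb between 31.4 and 93.6.

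Among other genes of the complex and its assembly, Cybc1, the chaperone that cytochrome b558 needs to mature, differed by -0.04 ± 0.16 in D/F and 0.11 ± 0.10 (SE) in T/F and passed in neither. Hvcn1, the proton channel that balances the charge the oxidase moves, fell in both genotypes, from a mean of 44.4 to 13.3 TPM in D/F (log2 fold change -1.67 ± 0.16, adjusted p = 0.00599 by limma) and from 43.2 to 20.7 TPM in T/F (-1.03 ± 0.13, adjusted p = 0.00217). Of this group of 4, with Rac1 and Rap1a, 1 was called lower and none higher in D/F, and 1 lower and 1 higher in T/F. Of all genes, 6.51% were called lower in D/F, and 17.6% lower and 25.8% higher in T/F. The count called higher in T/F was thus near the share of all genes. The median over the group was 0.01 on the log2 scale for D/F, with 0.12 for T/F.

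Rac1, the widely expressed sister of Rac2 that can also serve the oxidase, was the gene called higher. It stood at 246, 257 and 238 TPM in T/F under DMSO and rose to 329, 355 and 332 TPM, a log2 fold change of 0.45 ± 0.07 (SE) with an adjusted p of 0.00344 by limma. In D/F it stood at 259, 227 and 229 TPM under DMSO and 329, 239 and 301 TPM under CCS1477, with overlap and an adjusted p of 0.346. Rac2 therefore made up less of the summed Rac1 and Rac2 TPM after treatment in every mouse. In D/F its share was 42.2%, 46.7% and 42.9% under DMSO and 29.6%, 26.0% and 28.5% under CCS1477. In T/F it was 45.0%, 41.1% and 44.7% under DMSO and 36.3%, 33.8% and 34.5% under CCS1477. The treatments did not overlap in either genotype, and the exact permutation p, which did not use the pairing by mouse, was 0.1 in each. Between genotypes the share was alike under DMSO, 43.9% ± 2.42 against 43.6% ± 2.17 (SD, n = 3, exact permutation p = 1), and lower in every D/F library under CCS1477. This pair, and that of Cybb with Nox4, was chosen after values had been seen.

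**Figure D3:**
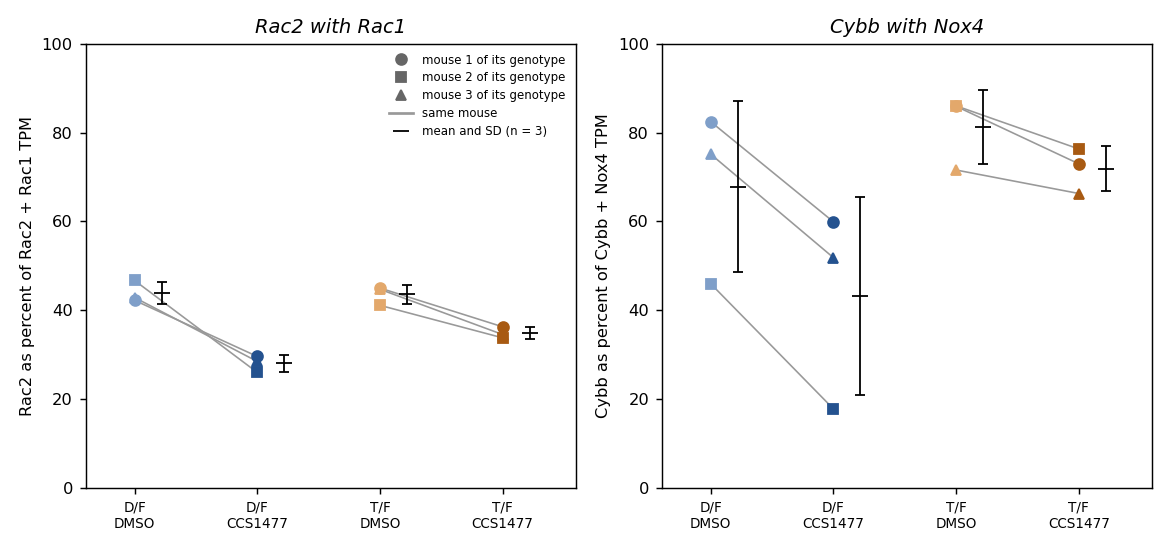
Rac2 as a percentage of Rac2 plus Rac1 TPM (left) and Cybb as a percentage of Cybb plus Nox4 TPM (right) in the 4 groups, one symbol per mouse, with lines joining libraries of a mouse and bars for the mean and SD of 3 mice. The Rac2 share drops in each of the 6 mice with little spread, and the Cybb share of D/F mouse 2 lies far below the others.

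Nox4, an oxidase that pairs with p22phox but needs no cytosolic subunits, was listed at 21.1 to 41.0 TPM and differed by 0.01 ± 0.29 in D/F and -0.01 ± 0.13 (SE) in T/F. Its highest values, 41.0 and 38.6 TPM, were those of D/F mouse 2, in which Cybb was lowest, so that under CCS1477 Cybb made up 17.8% of their sum there. In the other 5 mice it made up 51.8% to 76.3% of that sum under CCS1477. Of the 9 other oxidase genes listed, 3 were in the table (Nox1, Nox4 and Noxo1). None was called in D/F, and in T/F 1 was called higher and none lower, where 25.8% of all genes were called higher. With the block 1 was called higher in D/F, and 1 higher and 1 lower in T/F. Of all genes the block called 21.4% higher in D/F, and 31.2% higher and 22.9% lower in T/F. The gene called without the block, Noxo1, an organizer for Nox1, went from a mean of 1.10 to 2.13 TPM in T/F, with an adjusted p of 0.0185 by limma.

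Of 11 genes that control the Rac GTPases, 4 were called lower and none higher in D/F, and 5 lower and 1 higher in T/F. Over all genes, 6.51% were called lower in D/F, and 17.6% lower and 25.8% higher in T/F. With the block 6 of the 11 were called lower in each genotype, and 1 higher in T/F. Of all genes the block called 18% lower in D/F, and 22.9% lower and 31.2% higher in T/F. Dock8, an exchange factor, completed the count in D/F, and Dock8 and Vav1 did in T/F. The medians over the list were -0.61 (D/F) and -0.28 (T/F) on the log2 scale. Elmo1, which with Dock proteins forms a Rac exchange factor, fell from a mean of 107 to 37.9 TPM in D/F (log2 fold change -1.47 ± 0.15, adjusted p = 0.00703 by limma) and from 98.0 to 50.0 TPM in T/F (-0.95 ± 0.13, adjusted p = 0.00261). Tiam1, a Rac exchange factor, fell by 1.04 ± 0.19 and 0.86 ± 0.08 on the log2 scale. Arhgap15, which switches Rac off, fell by 1.24 ± 0.24 and 0.72 ± 0.08. The called genes thus held both activators and a repressor of Rac. The gene called higher in T/F was Arhgap25, which also switches Rac off. Genes that only complete a count, here and in the lists that follow, were named after their values were seen.

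Of 11 kinases that act on oxidase subunits or upstream of them, 1 was called lower in D/F, and 3 lower and 1 higher in T/F. The D/F count was near the 6.51% of all genes called lower. In T/F 17.6% of all genes were called lower and 25.8% higher. With the block 3 of the 11 were called lower and 1 higher in D/F, where 18% of all genes were called lower and 21.4% higher. Akt1 completed the T/F count of those called lower. The medians were -0.22 (D/F) and -0.05 (T/F). Btk, a tyrosine kinase downstream of immune receptors, fell from a mean of 113 to 38.5 TPM in D/F (log2 fold change -1.53 ± 0.20, adjusted p = 0.0105 by limma) and from 100.3 to 53.9 TPM in T/F (-0.88 ± 0.06, adjusted p = 0.000463). A pair of protein kinase C genes moved in opposite directions in T/F. Prkcb, which phosphorylates p47phox, fell by 0.77 ± 0.22, and Prkca rose by 0.85 ± 0.16. Neither passed in D/F, where the differences were -0.58 ± 0.23 and 0.59 ± 0.33 (SE).

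Of 14 transcription factors with reported action on the promoters of these genes, 3 were called lower and none higher in D/F, and 4 lower and 1 higher in T/F. Of all genes, 6.51% were called lower and 5.14% higher in D/F, and 17.6% lower and 25.8% higher in T/F. With the block D/F had 5 called lower and 1 higher, while T/F had 6 lower and 2 higher. Of all genes the block called 18% lower and 21.4% higher in D/F, and 22.9% lower and 31.2% higher in T/F. The medians were -0.25 (D/F) and -0.03 (T/F). Spi1 encodes PU.1, whose core was found once in the sequence after the start of Cybb. It stood at 143, 129 and 146 TPM in D/F under DMSO and fell to 66.8, 39.7 and 56.1 TPM, a log2 fold change of -1.38 ± 0.22 (SE) with an adjusted p of 0.0168 by limma. In T/F it fell from 156, 172 and 158 TPM to 118, 135 and 111 TPM, a log2 fold change of -0.42 ± 0.09 (SE) with an adjusted p of 0.0145. Cebpa, the C/EBP factor of early myeloid cells, fell by 1.27 ± 0.15 in D/F and by 1.13 ± 0.08 in T/F. Elf1, an ETS factor that binds the Cybb promoter, fell by 0.73 ± 0.18 and 0.41 ± 0.11, and its adjusted p in D/F was 0.05 when rounded. Irf8, an IRF of monocyte precursors, was the other gene called lower in T/F (adjusted p = 0.00669), and in D/F it went from a mean of 65.8 to 26.1 TPM with an adjusted p of 0.0754. Irf2, called higher in T/F, was the remaining gene.

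Of 14 genes that dispose of superoxide and hydrogen peroxide, 3 were called higher and 1 lower in D/F, and 6 higher and 4 lower in T/F. Of all genes, 5.14% were called higher and 6.51% lower in D/F, and 25.8% higher and 17.6% lower in T/F. With the block the D/F counts were 6 higher and 3 lower, where 21.4% of all genes were called higher and 18% lower. The lower calls in D/F were near the share of all genes without and with the block. Sod1, a superoxide dismutase, completed the D/F count of those called higher, and Sod2, Mpo and Prdx3 the T/F count of those called lower. The medians were 0.20 (D/F) and 0.13 (T/F). Prdx1, a cytosolic peroxiredoxin, rose from a mean of 329.9 to 636 TPM in D/F (log2 fold change 0.94 ± 0.15, adjusted p = 0.0158 by limma) and from 420.0 to 641 TPM in T/F (0.61 ± 0.07, adjusted p = 0.0017). Prdx4, the peroxiredoxin of the endoplasmic reticulum, rose by 1.12 ± 0.21 and 0.93 ± 0.13. Prdx6, whose protein also supports the oxidase, fell by 0.84 ± 0.15 and 0.89 ± 0.07. Of 9 genes that supply NADPH, the electron donor, none was called in D/F by limma without the block, and in T/F Me1, malic enzyme, rose by 0.71 ± 0.15 and Nadk, NAD kinase, fell by 0.43 ± 0.07. With the block 1 was called higher in D/F, and 1 higher and 4 lower in T/F. Of all genes the block called 21.4% higher in D/F, and 31.2% higher and 22.9% lower in T/F. The median over the 9 genes was -0.14 in each genotype.

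**Figure D4:**
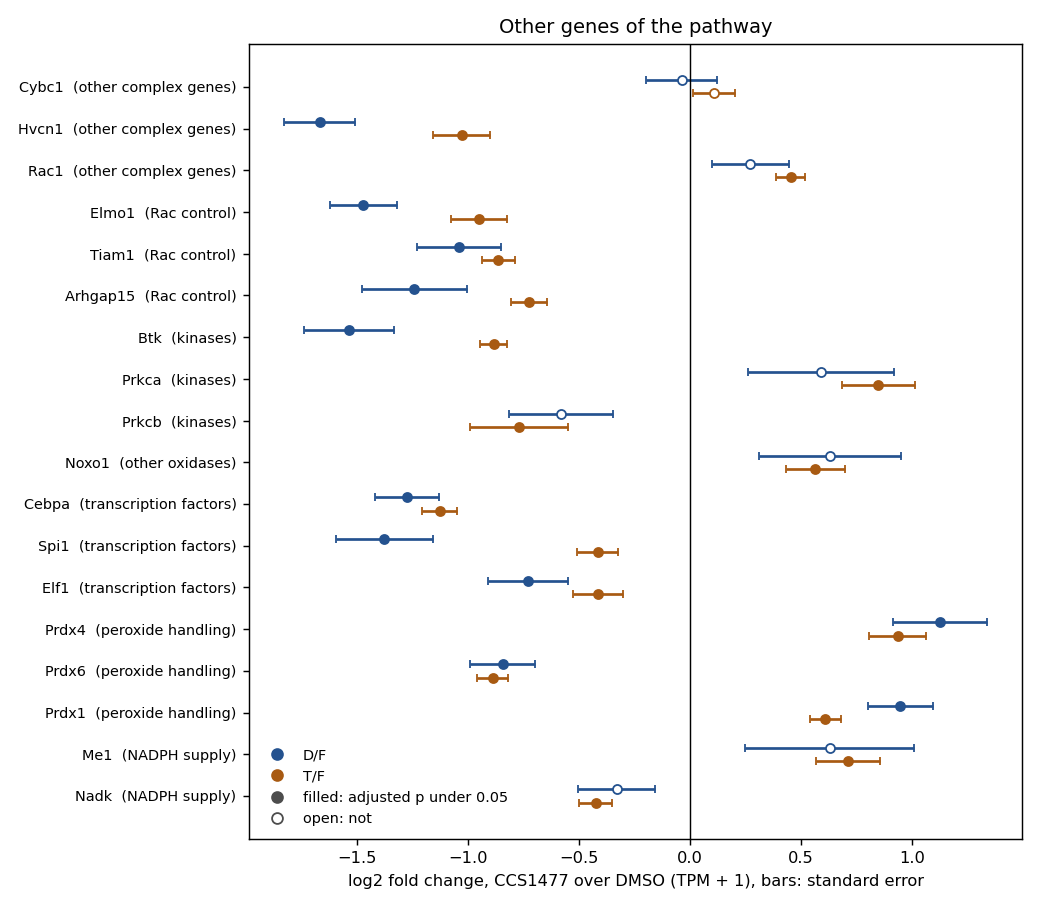
Log2 fold change of TPM + 1 under CCS1477 relative to DMSO (horizontal axis, with standard errors) for genes of the pathway outside the 5, in D/F (blue) and T/F (orange), with filled points for an adjusted p under 0.05. Hvcn1, Elmo1, Btk, Cebpa and Spi1 lie below 0 in both genotypes, and Rac1, Prdx1 and Prdx4 lie above it.

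Summed over the 5 genes, the TPM ranged from 939 to 1147 in D/F under DMSO and from 442 to 585 under CCS1477, and from 1106 to 1302 and 809 to 924 in T/F. Of 10 monocyte markers, 3 were called lower in D/F while T/F had 7, and their summed TPM ranged from 536 to 1401 and 162 to 581 in D/F and from 591 to 808 and 202 to 309.65 in T/F, in the same order. Of 10 neutrophil markers, 2 were called lower in each genotype, near the share of all genes in T/F, and the summed TPM of the treatments overlapped, at 2749 to 9514 and 1672 to 9384 in D/F and 2382 to 7239 and 2532 to 6952 in T/F. Of 10 markers of progenitors and primary granules, 1 was called lower in D/F, near the share of all genes, and 6 in T/F. Their sums ranged from 4246 to 10409 and 1028 to 4409 in D/F and from 4485 to 6679 and 1855 to 3155 in T/F. Here too the treatments overlapped in D/F but not in T/F. In D/F the genes called were Csf1r, Ccr2 and Adgre1 of the monocyte list, Retnlg and Ly6g of the neutrophil list, and Myb of the progenitor list. In T/F the neutrophil list gave Mmp8 and Cxcr2. The block called 18% of all genes lower in D/F, and 22.9% lower and 31.2% higher in T/F. With it the lower calls were 8 and 9 for monocyte, 5 and 6 for neutrophil, and 8 and 8 for progenitor markers, in D/F and T/F. In T/F 1 neutrophil and 1 progenitor marker were called higher with the block. No gene of these lists was called higher in either genotype without the block, and none of their 30 genes was missing from the table. Their part in the result was not tested. D/F mouse 2 had the lowest neutrophil and monocyte sums of its group under both treatments, together with the lowest Cybb and Cyba. Its progenitor sum was also lowest, through the granule genes Elane, Prtn3, Ctsg and Mpo, while under DMSO its Kit (149 TPM against 50.5 and 60.9), Cd34 (447 against 110.3 and 138), Flt3 (46.0 against 9.86 and 25.9) and Gata2 (80.1 against 20.0 and 30.0) were the highest of the D/F mice. T-cell markers summed to 17.5 to 48.1 TPM and erythroid markers to 11.4 to 45.0 TPM, and none of either list was called in D/F or T/F, although the block called 1 and 4 of the erythroid markers lower. B-cell markers summed to 22.3 to 134 TPM, and in T/F their sum was 51.2 to 60.9 TPM under DMSO and 106 to 134 under CCS1477. The rise was that of Ighm, from a mean of 36.4 to 102 TPM in T/F. The T/F means of Cd79b (16.6 to 12.2 TPM), Ebf1 (1.53 to 1.41) and Pax5 (1.62 to 0.61) went down. Ighm was called higher and Cd79b and Pax5 lower in T/F, against 1 higher and 1 lower with the block. Without the block 25.8% of all genes were called higher and 17.6% lower in T/F.

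Over the 12 libraries, log2 levels of Cybb and Cyba correlated at r = 0.962, and still at 0.94 after the 4 group means were subtracted, which describes how they vary between mice. Cyba and Rac2 gave 0.891 and 0.774. Ncf1 and Ncf4 gave 0.818 over the libraries and -0.725 after the group means were subtracted, so that the pair shared the change between groups but not the variation within them. Among 11599 genes that averaged 5 TPM or more, those most like Cybb over the 12 libraries were Met (r = 0.984), Ciao2a (0.978) and Tram1 (0.977). Those most like Cyba were Slfn2 (0.974), Nfam1 (0.967) and Met (0.964). Ncf1 was followed most closely by Rprd1b (0.969), Pcnp (0.943) and Mtrf1 (0.935), and Ncf4 by Abi3 (0.983), Ccr2 (0.977) and Pirb (0.976). For Rac2 they were Fes (0.965), Zfp710 (0.960) and Reep5 (0.953). These correlations are over libraries that share mice and groups, and they are given as a description.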

How the data were processed

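RNA of c-Kit+ splenocytes was measured in 12 libraries from 6 mice, 3 per genotype. The labels name ribosome depletion and also a stranded mRNA kit. The authors deposited gene-level TPM, made with kallisto on mm10 per the labels. The annotation and settings were not given in the sources used here. The table keeps genes whose highest value is at least 2 TPM. TPM keeps no read numbers, so depth is unknown and precision is the spread between mice.

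Values were fitted as log2(TPM + 1) with limma (version 3.58.1, under R 4.3.3), after a filter at a mean of 1 TPM in a compared group, with two-sided p and Benjamini-Hochberg adjustment over all genes tested. This scale understates the fold change of low genes. Each treatment comparison used the libraries of its genotype. The steps were checked on simulated data. Exact permutation tests were two-sided, and those between treatments did not use the pairing of libraries by mouse.

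Replicate numbers pair the libraries, since each mouse gave both by the labels. Deviations from group means correlated at 0.34 to 0.655 within a mouse and at most at 0.132 between mice. Such deviations cancel out within a group, so positive values within a mouse in part force those between mice down. One supplementary header numbers D/F mouse 3 differently, and the labels were used.

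Positions are from GENCODE vM21 (GRCm38) and promoters from RefSeq. The members, lists and tests were chosen with earlier results of these data known. Named pathway genes were Cybc1, Rac1 and, per list, up to 3 called alike in both genotypes, ranked by the smaller log2 fold change, or otherwise up to 2 called in 1 genotype. Some genes of the lists are not reported here and were left out of their counts. Alternatives changed the pseudocount, filter, scaling, spread and pairing, or left out a mouse.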

Additional observations from a re-analysis of the deposited data

How the results depend on the processing

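The unpaired limma fit called 2 of the 5 oxidase genes in D/F. The count was 5 with the mouse as a replicate block and 4 in a fit of all 4 groups with a shared spread, and without single mice it ranged from 0 to 3. In T/F the count of 2 went to 0 when a 2-fold change was also asked for. Over both genotypes the count of 4 went to 2 under that rule, and without single mice it ranged from 2 to 4. Between genotypes under CCS1477 the shared fit called 1 (Ncf4), against 0.

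Of the recomputed fold changes of single genes, 341 kept direction and side of the threshold, 11 came to pass, 11 ceased to and 7 turned direction, all 7 small. Rac2 in T/F was 0.049 after quantile normalization. Ncf1 between genotypes under DMSO was 0.036 after median scaling and ranged from -0.086 to 0.127 without single mice. Rac2 in that comparison was -0.0115 after quantile normalization and ranged from -0.0236 to 0.0816 without single mice. The causes were not tested. Apart from the values given beside the results, the block changed no other call of the 5 genes.

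Of all genes, 1805 were called in D/F, against 6098 with the block, 4940 in the shared fit, 2846 after quantile normalization, 1128 above 2-fold, and 0 to 3739 without single mice. The 6620 of T/F became 3713 in the shared fit, 1118 above 2-fold, and 3473 and 3192 without mouse 1 or mouse 2. The 7061 over both genotypes became 1371 above 2-fold. Between genotypes, 5 of all genes were called under DMSO and 5 under CCS1477, none of them an oxidase gene. These counts became 9 to 20 under DMSO and 2 to 71 under CCS1477 where they moved. With 3 mice per group and unknown depth, small differences such as those of Cyba and Rac2 in T/F could not be resolved.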
